A study of Mus musculus with 15 samples.

Results

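The genes described here encode the T cell receptor complex and the proteins that carry its signal in the first steps inside the cell. They were chosen by name, and a list of 39 mouse gene symbols was matched to the Entrez gene IDs of the count table. Because Gads is another name of Grap2, the list held 38 genes. All 38 were found among the 27179 genes of the table. The 38 genes fall into 6 groups by role, with 4 CD3 and zeta chains, 4 co-receptor and surface receptor genes, 6 kinases, 9 adaptors, 6 effectors and 9 negative regulators. They were measured by bulk RNA sequencing in 15 libraries from cultured mouse CD4 T cells. Each of the conditions Tfh (T follicular helper), Th17 and Th1 had 5 libraries. Naive CD4 cells were cultured for 3.5 days on plate-bound anti-CD3 and anti-CD28 antibodies, which bind the receptor complex and its co-stimulatory partner, and were sorted by flow cytometry before RNA was isolated. Tfh cells were sorted as CXCR5 positive and IL-17A negative, and Th1 cells as IFNg positive. Neither the Th17 gate nor the culture cytokines are named in the sources used. Cells of all 3 conditions carried the genotype B6.Cg-Ifngtm3.1Lky-Il17atm1.1Lky, with altered alleles at the loci of interferon gamma and IL-17A that serve as cytokine reporters. All 3 conditions are cells made in culture, and each was sampled once it had passed a gate, so condition and gate cannot be told apart.

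The T cell receptor itself has no enzyme activity. Its alpha and beta chains bind peptide on an MHC molecule, and the signal enters the cell through the CD3 chains and the zeta chain, whose tails are phosphorylated by the kinase Lck, held at the co-receptor CD4. The kinase Zap70 docks on these tails and phosphorylates the adaptors Lat and Lcp2 (SLP-76), which gather phospholipase C gamma, Vav proteins and Tec-family kinases, and from there calcium, Ras and NF-kappaB signals branch off. Phosphatases, ubiquitin ligases and diacylglycerol kinases end these steps. Strength of receptor signalling is among the inputs known to bear on which helper fate a CD4 cell takes.

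The libraries held 4.87 to 12.2 M counts in Tfh, 8.82 to 11.6 M in Th17 and 7.34 to 25.2 M in Th1 (M for a 1 followed by 6 zeros). Levels are given in CPM, counts scaled to 1 M per library. The genes behind the gates followed the labels, and since Cxcr5 and the 2 cytokines were used in the sorts they check the labels and nothing more. Cxcr5 lay at 156 to 192 CPM in Tfh, 31.96 to 44.2 CPM in Th17 and 7.85 to 12.8 CPM in Th1 libraries, Il17a at 4.83 to 20.3 CPM in Tfh, 189 to 254 CPM in Th17 and 0 to 0.170 CPM in Th1 libraries, and Ifng at 0 to 0.790 CPM in Tfh, 0.261 to 1.02 CPM in Th17 and 693 to 1002 CPM in Th1 libraries. Of 6 B cell markers, Ms4a1 was at 0 in all Tfh and Th17 libraries, and the summed level of the list never passed 3.68 CPM. The 4 NK cell markers summed to at most 4.67 CPM. The 6 myeloid markers summed to 103 to 156 CPM in Tfh, 132 to 187 CPM in Th17 and 89.7 to 210 CPM in Th1 libraries, almost all of it from Cst3, while Lyz2 was at 0 in Th17 and Th1 libraries. The 2 CD8 markers summed to 5.22 to 11.3 CPM in Tfh, 6.19 to 16 CPM in Th17 and 7.29 to 26.1 CPM in Th1 libraries, with Cd8a at 0 in the 5 Tfh libraries. The 4 gamma-delta T cell markers summed to 13 to 28.3 CPM in Tfh, 13.7 to 20.3 CPM in Th17 and 26.6 to 49.2 CPM in Th1 libraries, and Sox13 among them was at 0 in Tfh libraries. The part of these other cells in the results was not tested.

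Counts of the receptor signalling genes made up a larger part of the transcriptome in Tfh cells than in Th17 cells, and a larger part in Th17 cells than in Th1 cells. The 38 genes took 1.65 ± 0.0497% of all counts in Tfh, 1.17 ± 0.0661% in Th17 and 0.912 ± 0.0419% in Th1 libraries (SD, n = 5 each), and the 15 libraries fell into 3 ranges that did not overlap. In bulk samples, fewer cells of a type and less RNA per cell cannot be told apart. A gene was called where the edgeR quasi-likelihood test gave a Benjamini-Hochberg adjusted p under 0.05 over the 12591 genes tested. All 38 genes passed the filter on low counts, Trat1 only through its level in Th1 and Txk only through its levels in Tfh and Th17. Calls of Trat1 and Txk against Th1 therefore support nothing. Both genes still enter the counts that follow. In Tfh against Th17, 19 of the 38 rose, 1 fell and 18 did not pass. By comparison, 6.8% of all genes tested were called higher and 9.98% lower. In Tfh against Th1, 27 rose, 3 fell and 8 did not pass, and here 24.1% of all genes were called higher and 25.2% lower. In Th17 against Th1, 21 rose, 4 fell and 13 did not pass, against 19% of all genes called higher and 17.8% lower. The median log2 fold change (log2FC) of the 38 genes was 0.498 in Tfh against Th17, 0.821 in Tfh against Th1 and 0.51 in Th17 against Th1, while the median over all genes tested stayed between -0.00959 and 0.025. The 3 comparisons share their libraries pairwise, so their counts are not independent of each other. The count of genes higher in Tfh than in Th17 ranged from 13, without Th17 replicate 1, to 20 when single libraries were left out.

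**Figure D1:**
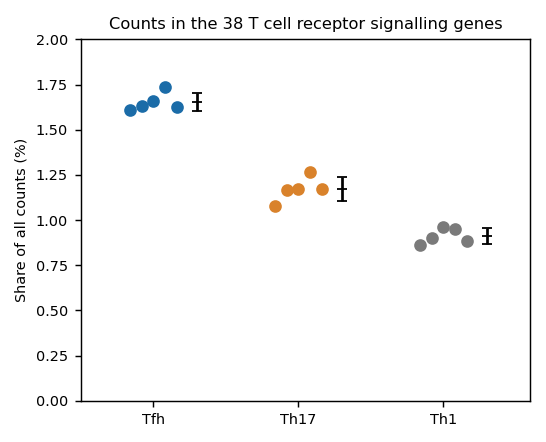
Percent of all counts in each library (vertical axis, from 0) that came from the 38 genes of the T cell receptor complex and its proximal signalling, by condition. Points are single libraries and the bars beside them give the mean and SD of 5; Tfh libraries lay at 1.61 to 1.73%, Th17 libraries at 1.08 to 1.27% and Th1 libraries at 0.863 to 0.961%.

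The CD3 chains delta, epsilon and gamma, which pair with the receptor's alpha and beta chains at the cell surface, were highest in Tfh, intermediate in Th17 and lowest in Th1 cells. Cd3d stood at 815, 978, 903, 789.6 and 767 CPM in the Tfh libraries. Cd3d had 604, 623, 629.9, 551 and 587 CPM in the Th17 libraries and 349, 443, 364, 342 and 421 CPM in the Th1 libraries. Its 3 ranges did not overlap. The log2FC (± SE) values were 0.51 ± 0.11 (adjusted p = 0.0033) in Tfh over Th17, 1.15 ± 0.11 (adjusted p = 8.5e-08) in Tfh over Th1 and 0.64 ± 0.11 (adjusted p = 0.00013) in Th17 over Th1. Cd3e stood at 885, 1152, 1412, 1651 and 1359 CPM in the Tfh libraries. Cd3e had 717, 774, 813, 1082 and 887 CPM in the Th17 libraries and 412, 506, 750.4, 665 and 460.2 CPM in the Th1 libraries. All Tfh libraries were above all Th1 libraries, with a log2FC of 1.21 ± 0.18 (adjusted p = 2.59e-05), while the Th17 libraries overlapped both other conditions. Over Th17, the log2FC of Cd3e was 0.60 ± 0.18 (adjusted p = 0.0308) in Tfh, a call lost without any 1 of Tfh replicates 3, 4 and 5 and Th17 replicates 1, 2 and 3 (adjusted p 0.0558 to 0.0896). In Th17 over Th1 the log2FC was 0.61 ± 0.18 (adjusted p = 0.0131), and this call was lost without either of Th17 replicate 4 and Th1 replicate 5 (adjusted p 0.0508 to 0.0516). Cd3g stood at 578, 704, 740.0, 636 and 539 CPM in the Tfh libraries. Cd3g had 474, 570.0, 459, 459 and 444 CPM in the Th17 libraries and 363, 463, 410.0, 336 and 334 CPM in the Th1 libraries. It had a log2FC of 0.75 ± 0.13 (adjusted p = 7.42e-05) in Tfh over Th1 with no overlap. The log2FC of Tfh over Th17 was 0.41 ± 0.13 (adjusted p = 0.0301), lost without any 1 of Tfh replicates 2, 3 and 4 and Th17 replicates 1, 3, 4 and 5 (adjusted p 0.0515 to 0.0762) and with a correction for GC content (adjusted p = 0.0703). That of Th17 over Th1 was 0.34 ± 0.13 (adjusted p = 0.0431), lost in 12 of the 15 fits that left out 1 library (adjusted p 0.0625 to 0.17, all but those without Tfh replicates 1 and 4 and Th1 replicate 2) and in 6 of 10 other settings.

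Cd247, which encodes the zeta chain that carries most of the complex's signalling motifs, did not follow the CD3 chains. It stood at 104.8, 148, 156, 188 and 136 CPM in the Tfh libraries. Cd247 had 81.4, 120.1, 116, 172 and 145 CPM in the Th17 libraries and 109.6, 155, 205, 194 and 135 CPM in the Th1 libraries. The 3 conditions overlapped, and none of the differences passed the test. The 95% intervals of the log2FC were -0.22 to 0.64 in Tfh over Th17, -0.55 to 0.31 in Tfh over Th1 and -0.76 to 0.10 in Th17 over Th1. The gene Pou2f1 overlaps Cd247 in the genome and its counts came to 29.2% of those of Cd247, so with no strand setting stated in the sources used, the value of Cd247 is uncertain.

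The 3 CD3 genes that moved together lie side by side on chromosome 9 (GRCm38, the assembly that mm10 denotes). Cd3g (chr9:44969572-44980431) and Cd3d (chr9:44981769-44987052) are transcribed away from each other with 1337 bases between them, and Cd3e (chr9:44998735-45009663) follows 11682 bases beyond Cd3d. Their promoters are shown because all 3 hold the 6 letters AGGTGT, the core of the site bound by T-box factors, on one strand or the other. Each sequence is the 250 bases before a transcript start in RefSeq on GRCm38.p6, written 5′ to 3′ on the gene's own strand. For Cd3d and Cd3e the start used lies inside the gene span given above, so the bases nearest to it belong to that span. Capitals mark AGGTGT, read ACACCT on the opposite strand. In Cd3d they also mark CTTTGA, the core of the site of TCF factors, read TCAAAG on the opposite strand.
Cd3d (chr9:44981536-44981785, plus strand): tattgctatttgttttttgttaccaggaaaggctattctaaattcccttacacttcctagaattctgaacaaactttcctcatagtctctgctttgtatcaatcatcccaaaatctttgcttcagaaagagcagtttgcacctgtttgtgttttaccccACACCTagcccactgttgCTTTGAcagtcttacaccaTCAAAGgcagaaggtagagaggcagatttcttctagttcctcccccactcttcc
Cd3e (chr9:45009612-45009861, minus strand): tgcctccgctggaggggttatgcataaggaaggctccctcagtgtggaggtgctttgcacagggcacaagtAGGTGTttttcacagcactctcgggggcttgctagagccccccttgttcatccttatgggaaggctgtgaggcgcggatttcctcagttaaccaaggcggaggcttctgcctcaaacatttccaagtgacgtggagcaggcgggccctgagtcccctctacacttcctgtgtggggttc
Cd3g (chr9:44980432-44980681, minus strand): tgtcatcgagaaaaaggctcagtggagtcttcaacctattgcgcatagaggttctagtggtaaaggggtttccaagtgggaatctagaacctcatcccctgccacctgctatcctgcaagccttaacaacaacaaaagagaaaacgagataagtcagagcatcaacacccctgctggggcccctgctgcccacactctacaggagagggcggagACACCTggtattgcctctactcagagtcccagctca
In Cd3d the T-box letters lay 91 to 86 bases before the start, with the TCF letters at 73 to 68 and again, on the opposite strand, at 54 to 49 bases. In Cd3e they lay 179 to 174 bases and in Cd3g 36 to 31 bases before the start. Promoters of 34 of the 38 genes were found in the RefSeq table, and 5 motifs were searched in them on both strands. AGGTGT was present in 8 of the 34, and in 6 of the 12 that belong to genes called stepwise, with Tfh above Th17 and Th17 above Th1 (Cd3d, Cd3e, Cd3g, Cd5, Plcg1 and Ubash3b), against 9.79% of the promoters of all genes tested. The 8 also held Csk, called in no comparison, and Trat1, which was highest in Th1. Of the 6 stepwise genes, Cd3e, Cd3g and Cd5 were no longer called stepwise without Th17 replicate 1. The stepwise genes were defined on these same data, and the motifs were chosen with earlier results known, so these counts are no test. CTTTGA was present in 9 of the 34 and 4 of the 12, against 10.6%, and the MAF half-site TGCTGA in 5 of the 34 and 1 of the 12, against 12.2%. The RUNX core TGTGGT was present in 3 of the 34 and 0 of the 12, against 10.9%, and the ETS core CCGGAA in 3 of the 34 and 2 of the 12, against 23.6%. No match of 1 motif overlapped a match of another in these promoters. A match is a description of the letters and no evidence that a factor binds.

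Among the surface receptors, Cd4 was called in no comparison, while Cd5 and Cd6 were lowest in Th1. CD4 is the co-receptor that brings Lck to the complex, and its gene stood at 509.6, 592, 561, 557 and 539 CPM in the Tfh libraries. Cd4 had 556, 571, 521, 652 and 455 CPM in the Th17 libraries and 444, 637, 748, 618 and 516 CPM in the Th1 libraries. The 3 conditions overlapped throughout. The 95% interval of the log2FC was -0.28 to 0.28 in Tfh over Th17, -0.39 to 0.18 in Tfh over Th1 and -0.39 to 0.18 in Th17 over Th1. Cd5, a surface inhibitor of receptor signalling whose level is known to follow the strength of that signal in thymocytes, stood at 1453, 1343, 1686, 1886 and 1619 CPM in the Tfh libraries. Cd5 had 953, 1002, 1080.0, 1399 and 1102 CPM in the Th17 libraries and 501, 493, 798, 673 and 487 CPM in the Th1 libraries. Tfh and Th17 libraries were all above the Th1 libraries, and a single Th17 library, replicate 4, reached into the Tfh range. The log2FC of Cd5 was 1.44 ± 0.16 (adjusted p = 4.9e-07) in Tfh over Th1 and 0.91 ± 0.16 (adjusted p = 0.00014) in Th17 over Th1. In Tfh over Th17 it was 0.53 ± 0.15 (adjusted p = 0.0238), lost without any 1 of Tfh replicate 4 and Th17 replicates 1 and 2 (adjusted p 0.0598 to 0.0697).

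Cd6, a receptor of the same family, lies 50312 bases from Cd5 on chromosome 19 with 1 gene between them. It stood at 501, 368, 376, 407 and 315 CPM in the Tfh libraries. Cd6 had 275, 309, 272, 382 and 268 CPM in the Th17 libraries and 170.0, 174, 250.2, 219 and 168 CPM in the Th1 libraries. Both Tfh and Th17 were above Th1 with no overlap, with a log2FC of 1.002 ± 0.15 (adjusted p = 2.53e-05) in Tfh and 0.62 ± 0.15 (adjusted p = 0.00352) in Th17. Tfh and Th17 overlapped, and the log2FC of 0.39 ± 0.15 in Tfh over Th17 did not pass (adjusted p = 0.0934). Ptprc, which encodes CD45, the phosphatase that keeps Lck ready for activation, had a log2FC of 0.78 ± 0.21 (adjusted p = 0.00519) in Tfh over Th1, with ranges of 1144 to 2009 CPM in Tfh, 649 to 1294 CPM in Th17 and 598 to 1281 CPM in Th1 libraries. Its log2FC of 0.61 ± 0.21 in Tfh over Th17 did not pass (adjusted p = 0.0583). Ptprc was called there in 9 of 10 other settings and in 5 of the 15 fits that left out 1 library.

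The kinases held Txk, the gene of the set with the largest rise in Tfh and in Th17 over Th1. Txk (Rlk), a T cell kinase that acts on phospholipase C gamma, stood at 53.9, 74.4, 76.1, 70.9 and 62.3 CPM in the Tfh libraries. Txk had 28.8, 38.5, 37.1, 39.2 and 39.99 CPM in the Th17 libraries and 1.54, 2.71, 0.890, 0.554 and 0.255 CPM in the Th1 libraries. It was close to absent from Th1 libraries, with 69 counts over the 5 of them against 3081 in Tfh and 1922 in Th17, and no condition overlapped another. Txk passed the filter on low counts only through Tfh and Th17, so its calls against Th1 support nothing. Its log2FC was 5.89 ± 0.36 (adjusted p = 1.64e-10) in Tfh over Th1, 59.1-fold, and 5.01 ± 0.35 (adjusted p = 2.01e-09) in Th17 over Th1, 32.2-fold. In Tfh over Th17 it was 0.88 ± 0.27 (adjusted p = 0.0325), a call lost without any 1 of Tfh replicates 2, 3, 4 and 5 and Th17 replicates 1, 2, 3 and 5 (adjusted p 0.0525 to 0.0835). Tec, the kinase that gave the family its name, is Txk's neighbour on chromosome 5, with 2725 bases between Txk (chr5:72695978-72752992) and Tec (chr5:72755718-72868654). It stood at 59.9, 54.7, 54.1, 63.4 and 77.95 CPM in the Tfh libraries. Tec had 57.5, 56.1, 49.5, 45.2 and 56.7 CPM in the Th17 libraries and 8.83, 10.8, 8.39, 9.78 and 9.79 CPM in the Th1 libraries. Tfh and Th17 overlapped each other and were above Th1, with a log2FC of 2.703 ± 0.15 (adjusted p = 3.85e-11) in Tfh and 2.48 ± 0.15 (adjusted p = 1.91e-10) in Th17, which is 6.51-fold in Tfh and 5.57-fold in Th17. The log2FC of 0.23 ± 0.14 in Tfh over Th17 did not pass (adjusted p = 0.301).

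The promoter of Txk, the gene with the largest log2FC over Th1 among the 6 kinases, is shown beside that of the adaptor gene Themis. Themis ran the other way and is described with the adaptors. Capitals mark TCAAAG, the TCF letters on the opposite strand, 192 to 187 bases before the transcript start used for Txk. That start lies inside the gene span given for Txk, so most of the window and the marked letters fall within the span. None of the 5 motifs was found in the window of Themis.
Txk (chr5:72752778-72753027, minus strand): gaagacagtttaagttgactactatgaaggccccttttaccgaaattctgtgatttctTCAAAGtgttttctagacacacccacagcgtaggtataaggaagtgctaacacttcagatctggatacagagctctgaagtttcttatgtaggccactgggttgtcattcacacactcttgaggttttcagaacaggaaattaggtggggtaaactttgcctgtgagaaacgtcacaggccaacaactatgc
Themis (chr10:28668110-28668359, plus strand): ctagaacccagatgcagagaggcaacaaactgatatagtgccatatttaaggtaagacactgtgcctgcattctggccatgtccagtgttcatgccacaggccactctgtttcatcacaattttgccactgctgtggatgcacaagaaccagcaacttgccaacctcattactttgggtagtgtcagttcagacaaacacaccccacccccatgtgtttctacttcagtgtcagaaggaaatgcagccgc

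The Src and Syk family kinases had smaller log2FC values over Th1 than Txk and Tec. Zap70, which docks on the phosphorylated chains, stood at 688, 487, 692, 757 and 637 CPM in the Tfh libraries. Zap70 had 327, 300.2, 371, 452 and 408 CPM in the Th17 libraries and 166, 225, 299, 309.5 and 183 CPM in the Th1 libraries. Every Tfh library was above every Th17 and Th1 library, with a log2FC of 0.81 ± 0.18 (adjusted p = 0.00367) over Th17 and 1.46 ± 0.18 (adjusted p = 2.07e-06) over Th1. Th17 libraries were higher than Th1 libraries by a log2FC of 0.65 ± 0.18 (adjusted p = 0.00717) with a small overlap. Lck, which phosphorylates the chains and Zap70, stood at 1078, 949, 1077, 1251 and 1126 CPM in the Tfh libraries. Lck had 746, 722, 919.5, 1101 and 938 CPM in the Th17 libraries and 456, 693, 899, 759 and 588 CPM in the Th1 libraries. The log2FC was 0.69 ± 0.16 (adjusted p = 0.00173) in Tfh over Th1. Its log2FC of 0.31 ± 0.16 in Tfh over Th17 (adjusted p = 0.219) and 0.38 ± 0.16 in Th17 over Th1 (adjusted p = 0.073) did not pass. Fyn, the second Src kinase at the receptor, was called higher in Tfh than in both others: its ranges were 428 to 529 CPM in Tfh, 233 to 280.1 CPM in Th17 and 254 to 333 CPM in Th1 libraries. It had a log2FC of 0.87 ± 0.11 (adjusted p = 2.26e-05) in Tfh over Th17 and 0.67 ± 0.11 (adjusted p = 5.48e-05) in Tfh over Th1, and in Th17 over Th1 the log2FC of -0.20 ± 0.11 did not pass (adjusted p = 0.159). Per kilobase, Lck made up 72.8 to 80.9% of the sum of Lck and Fyn in Tfh, 81.0 to 85.7% in Th17 and 72.5 to 80.1% in Th1 libraries. Prkcq, the protein kinase C theta that links the receptor to NF-kappaB, stood at 508, 458, 406, 435 and 397 CPM in the Tfh libraries. Prkcq had 225, 334, 275, 283 and 269 CPM in the Th17 libraries and 178, 179, 200.3, 176 and 181 CPM in the Th1 libraries. Its 3 conditions were fully apart. Prkcq had a log2FC of 0.67 ± 0.12 (adjusted p = 0.000512) in Tfh over Th17, 1.27 ± 0.12 (adjusted p = 4.67e-08) in Tfh over Th1 and 0.60 ± 0.12 (adjusted p = 0.00043) in Th17 over Th1.

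**Figure D2:**
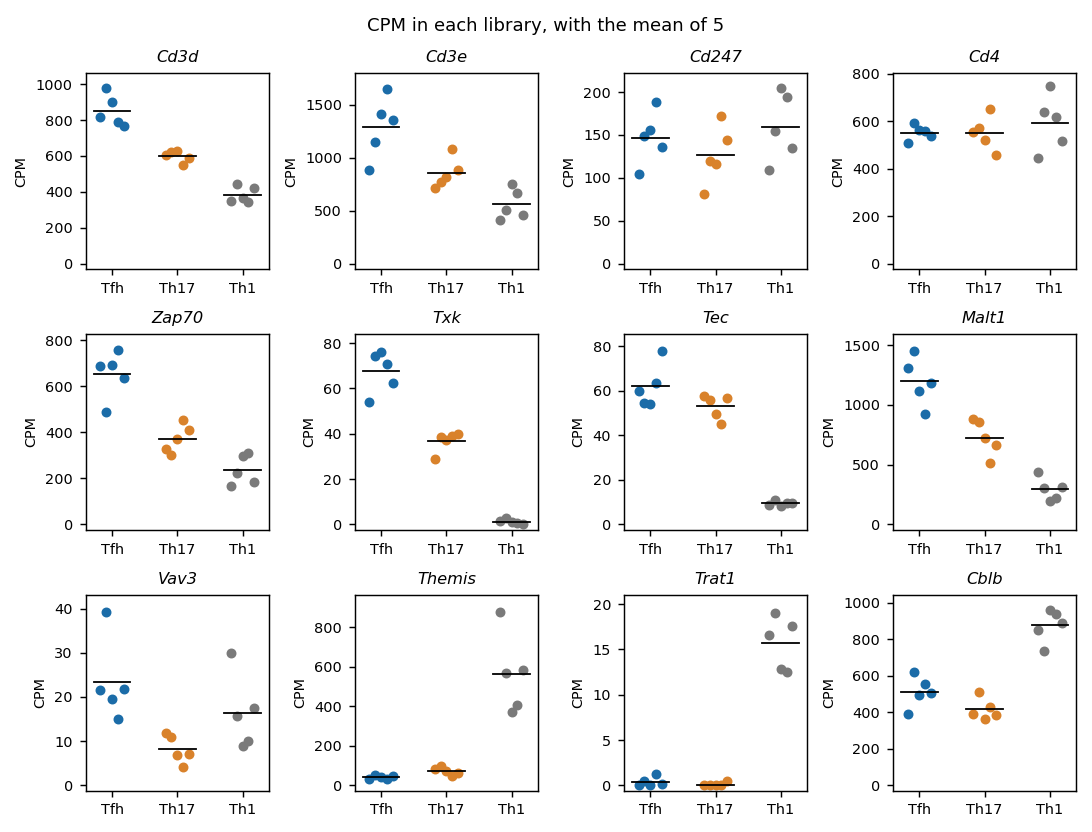
CPM (vertical axis, linear) of 12 of the genes in each of the 15 libraries, with Tfh, Th17 and Th1 from left to right. Points are libraries and lines the mean of 5; Cd3d, Zap70, Txk and Malt1 step down from Tfh to Th1, Cd247 and Cd4 overlap in all conditions, and Themis, Trat1 and Cblb are highest in Th1.

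The adaptors, which have no enzyme activity and hold the complex together, numbered 9. In Tfh against Th1, 6 of the 9 rose and 2 fell, which is 66.7% and 22.2%, against 24.1% and 25.2% of all genes. Trat1, whose calls against Th1 support nothing, is among the 2. Lat, the membrane scaffold phosphorylated by Zap70, stood at 361, 309, 422, 453 and 368 CPM in the Tfh libraries. Lat had 235, 261, 327, 448 and 349 CPM in the Th17 libraries and 111, 164, 261, 216 and 120.0 CPM in the Th1 libraries. Every Tfh library was above every Th1 library, while Th17 replicates 1 and 2 lay just below the highest Th1 library. Lat was called higher than in Th1 in both, with a log2FC of 1.13 ± 0.22 (adjusted p = 0.000343) in Tfh and 0.89 ± 0.22 (adjusted p = 0.00369) in Th17. Tfh and Th17 overlapped, with 3 of 5 Th17 libraries inside the Tfh range, and the log2FC of 0.24 ± 0.22 in Tfh over Th17 did not pass (adjusted p = 0.513). Its partners Lcp2 and Grap2, which link Lat to phospholipase C gamma and Vav, were above Th1 in every Tfh and Th17 library. Lcp2 lay at 633 to 906 CPM in Tfh, 775 to 924 CPM in Th17 and 383 to 603 CPM in Th1 libraries, and Grap2 at 30.4 to 45.8 CPM in Tfh, 31.8 to 45.5 CPM in Th17 and 14.2 to 26.2 CPM in Th1 libraries. Against Th1, Lcp2 had a log2FC of 0.76 ± 0.13 (adjusted p = 8.81e-05) in Tfh and 0.82 ± 0.13 (adjusted p = 6.79e-05) in Th17. Grap2 had a log2FC of 0.86 ± 0.18 (adjusted p = 0.000634) in Tfh and 0.83 ± 0.18 (adjusted p = 0.0012) in Th17. In Tfh over Th17 the 95% interval was -0.33 to 0.22 for Lcp2 and -0.35 to 0.40 for Grap2.

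Skap1, which ties the receptor to integrin adhesion, stood at 289.8, 228, 259.9, 254 and 217 CPM in the Tfh libraries. Skap1 had 129, 154, 149, 178 and 145 CPM in the Th17 libraries and 73.2, 97.96, 136, 113 and 83.7 CPM in the Th1 libraries. Tfh libraries were apart from all others, by a log2FC of 0.72 ± 0.15 (adjusted p = 0.00298) over Th17 and 1.31 ± 0.16 (adjusted p = 1.42e-06) over Th1, and Th17 had a log2FC of 0.58 ± 0.15 (adjusted p = 0.00588) over Th1 with an overlap. Fyb, its binding partner (ADAP), had a log2FC of 0.49 ± 0.14 (adjusted p = 0.0225) in Tfh over Th17, lost without any 1 of Tfh replicate 4 and Th17 replicates 1 and 3 (adjusted p 0.0546 to 0.0665), and 0.48 ± 0.14 (adjusted p = 0.0093) in Tfh over Th1. Its ranges overlapped, at 216 to 358 CPM in Tfh, 192 to 267 CPM in Th17 and 194 to 254 CPM in Th1 libraries. Sit1, a transmembrane adaptor that recruits a phosphatase and dampens the signal, stood at 64.95, 24.9, 37.7, 50.7 and 39.02 CPM in the Tfh libraries. Sit1 had 23.3, 22.9, 23.5, 29.1 and 27.2 CPM in the Th17 libraries and 7.85, 8.03, 15.3, 11.8 and 7.24 CPM in the Th1 libraries. Tfh and Th17 were above Th1 with no overlap, with a log2FC of 2.10 ± 0.25 (adjusted p = 1.56e-06) in Tfh and 1.31 ± 0.25 (adjusted p = 0.000372) in Th17. In Tfh over Th17 the log2FC was 0.78 ± 0.24 (adjusted p = 0.0319), with Tfh replicate 2 inside the Th17 range, and the call was lost without any 1 of Tfh replicates 1 and 4 and Th17 replicates 1, 2 and 3 (adjusted p 0.0685 to 0.0966). Nck1, an adaptor to the cytoskeleton, lay at 13.7 to 28.3 CPM in Tfh, 12.8 to 21.2 CPM in Th17 and 9.37 to 23.8 CPM in Th1 libraries, and none of its differences passed.

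Themis and Trat1 ran the opposite way, with their highest CPM in Th1 libraries. Themis, an adaptor best known for its part in thymocyte selection (chr10:28668360-28883820), stood at 29.6, 51.98, 41.9, 32.8 and 46.2 CPM in the Tfh libraries. Themis had 81.8, 98.5, 70.4, 45.8 and 62.04 CPM in the Th17 libraries and 875, 567, 372, 409 and 583 CPM in the Th1 libraries. Every Th1 library was above every other library. The log2FC of Themis was -3.79 ± 0.26 (adjusted p = 8.07e-10) in Tfh over Th1, or 13.8-fold lower, and -2.97 ± 0.25 (adjusted p = 2.11e-08) in Th17 over Th1, or 7.82-fold lower. Tfh was also lower than Th17, with a log2FC of -0.82 ± 0.24 (adjusted p = 0.0216) and an overlap, which made Themis the only gene of the 38 called lower in Tfh than in Th17. That call was lost without any 1 of Tfh replicates 1 and 4 and Th17 replicates 1 and 2 (adjusted p 0.052 to 0.0658) and with limma-voom (adjusted p = 0.05004). Trat1, a transmembrane adaptor that binds the zeta chain (TRIM), stood at 0, 0.424, 0, 1.19 and 0.198 CPM in the Tfh libraries. Trat1 had 0, 0, 0, 0 and 0.436 CPM in the Th17 libraries and 16.5, 19.1, 12.9, 12.5 and 17.6 CPM in the Th1 libraries. Its counts summed to 17 in Tfh, 5 in Th17 and 961 in Th1 libraries, and all 5 counts of Th17 came from replicate 5. It was thus near the floor in Tfh and Th17 libraries, where 3 counts are worth between 0.245 and 0.58 CPM, depending on the library (counting error only). Trat1 passed the filter on low counts only through its level in Th1, so its calls against Th1 support nothing. The fitted log2FC was -5.33 ± 0.70 (adjusted p = 4.39e-06) in Tfh over Th1 and -7.20 ± 0.81 (adjusted p = 1.06e-06) in Th17 over Th1. These sizes rest on few counts: the first was -6.62 without Tfh replicate 4 and the second -10.41 without Th17 replicate 5. In Tfh over Th17 the log2FC of 1.87 ± 1.02 did not pass (adjusted p = 0.24).

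The effectors, which turn the assembled complex into second messengers, cytoskeletal change and NF-kappaB activation, had a summed level that did not overlap between conditions. It was 1581 to 2067 CPM in Tfh, 1009 to 1327 CPM in Th17 and 541 to 750.0 CPM in Th1 libraries. Malt1 carried much of this sum, with a mean of 1197 of 1821 CPM in Tfh, 726 of 1196 CPM in Th17 and 296 of 622 CPM in Th1. The summed levels of the CD3 and zeta chains and of the co-receptor and surface receptor genes did not overlap either. Those of the kinases, adaptors and negative regulators overlapped between Th17 and Th1. Plcg1, the phospholipase that makes diacylglycerol and inositol trisphosphate, stood at 193, 196, 173, 208 and 195 CPM in the Tfh libraries. Plcg1 had 119.5, 108, 119, 136 and 128 CPM in the Th17 libraries and 64.1, 68.3, 77.2, 77.8 and 72.5 CPM in the Th1 libraries. Its conditions were fully apart. Plcg1 had a log2FC of 0.66 ± 0.11 (adjusted p = 0.000322) in Tfh over Th17, 1.42 ± 0.11 (adjusted p = 4.64e-09) in Tfh over Th1 and 0.76 ± 0.11 (adjusted p = 2e-05) in Th17 over Th1. The gene Zhx3 overlaps it, with counts that came to 7.07% of those of Plcg1. Vav1, the exchange factor that activates Rac and actin, stood at 217, 164, 209, 189 and 195 CPM in the Tfh libraries. Vav1 had 129.7, 122, 152, 139.7 and 144 CPM in the Th17 libraries and 61.95, 72.6, 66.2, 79.2 and 73.3 CPM in the Th1 libraries. It too had no overlap. The log2FC values of Vav1 were 0.50 ± 0.12 (adjusted p = 0.00533) in Tfh over Th17, 1.46 ± 0.12 (adjusted p = 7.67e-09) in Tfh over Th1 and 0.96 ± 0.12 (adjusted p = 2.79e-06) in Th17 over Th1. Its relative Vav3 was lowest in Th17 instead. It stood at 21.7, 39.3, 19.4, 15.03 and 21.8 CPM in the Tfh libraries. Vav3 had 11.8, 10.9, 6.88, 4.05 and 7.14 CPM in the Th17 libraries and 29.99, 15.7, 8.90, 10.1 and 17.5 CPM in the Th1 libraries. Tfh was higher than Th17 by a log2FC of 1.52 ± 0.35 (adjusted p = 0.0057) with no overlap, and Th17 was lower than Th1 with a log2FC of -1.002 ± 0.35 (adjusted p = 0.0318) and an overlap. In Tfh over Th1 the log2FC of 0.52 ± 0.34 did not pass (adjusted p = 0.222, and 0.0465 with a correction for GC content). The call in Th17 over Th1 was lost without any 1 of Th17 replicates 3, 4 and 5 and Th1 replicate 1 (adjusted p 0.0559 to 0.109) and with limma-voom (adjusted p = 0.0675). Per kilobase, Vav1 made up 87.2 to 95.4% of the sum of Vav1 and Vav3 in Tfh, 94.7 to 98.3% in Th17 and 77.1 to 92.8% in Th1 libraries.

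Malt1, the protease and scaffold that carries the signal to NF-kappaB, stood at 1306, 1454, 1117, 924 and 1185 CPM in the Tfh libraries. Malt1 had 879, 856, 719, 513 and 661 CPM in the Th17 libraries and 438, 308, 198, 222 and 317 CPM in the Th1 libraries. The 3 conditions were apart. Malt1 had a log2FC of 0.72 ± 0.20 (adjusted p = 0.0164) in Tfh over Th17, 2.01 ± 0.20 (adjusted p = 1.82e-07) in Tfh over Th1, a 4.04-fold difference, and 1.29 ± 0.20 (adjusted p = 4.78e-05) in Th17 over Th1. Its partner Bcl10 lay at 75.2 to 103 CPM in Tfh, 90.9 to 104 CPM in Th17 and 66.2 to 84.2 CPM in Th1 libraries. Bcl10 had a log2FC of 0.44 ± 0.12 (adjusted p = 0.00678) in Th17 over Th1 and 0.37 ± 0.12 (adjusted p = 0.0145) in Tfh over Th1. The second call was lost without either of Tfh replicate 2 and Th1 replicate 4 (adjusted p 0.0514 to 0.061) and in a fit on these 2 conditions alone (adjusted p = 0.052). Was, the actin regulator missing in Wiskott-Aldrich syndrome, lay at 104.6 to 142 CPM in Tfh, 88.6 to 126 CPM in Th17 and 72.04 to 122 CPM in Th1 libraries, and none of its differences passed.

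The negative regulators held 4 genes of 9 that rose and 5 that did not pass in Tfh against Th17, where 6.8% of all genes were called higher and 9.98% lower. In Tfh against Th1, 5 rose and 1 fell, against 24.1% and 25.2% of all genes. In Th17 against Th1, 3 rose, 1 fell and 5 did not pass, against 19% and 17.8% of all genes. Ptpn22, a phosphatase that acts on Lck and Zap70, stood at 457, 515, 551, 447 and 567 CPM in the Tfh libraries. Ptpn22 had 465, 448, 397, 387 and 383 CPM in the Th17 libraries and 215, 196, 196, 165 and 179.6 CPM in the Th1 libraries. Tfh and Th17 were above Th1 with no overlap, with a log2FC of 1.41 ± 0.11 (adjusted p = 7.94e-09) in Tfh and 1.13 ± 0.11 (adjusted p = 2.48e-07) in Th17, while the log2FC of 0.29 ± 0.11 in Tfh over Th17 did not pass (adjusted p = 0.0923). Ubash3b (Sts-1), a phosphatase that acts on Zap70, stood at 272, 286, 306, 342 and 322 CPM in the Tfh libraries. Ubash3b had 185, 183, 215, 241 and 233 CPM in the Th17 libraries and 91.7, 119.8, 147, 147 and 112 CPM in the Th1 libraries. Its conditions did not overlap. The log2FC values of Ubash3b were 0.53 ± 0.14 (adjusted p = 0.0118) in Tfh over Th17, 1.31 ± 0.14 (adjusted p = 3.66e-07) in Tfh over Th1 and 0.78 ± 0.14 (adjusted p = 0.000219) in Th17 over Th1. Dgka, a diacylglycerol kinase that removes the messenger made by phospholipase C gamma, stood at 467, 565, 438, 518 and 413 CPM in the Tfh libraries. Dgka had 261, 321, 278, 311 and 273 CPM in the Th17 libraries and 156, 189, 199, 205 and 169 CPM in the Th1 libraries. It was apart in all conditions. Dgka had a log2FC of 0.74 ± 0.12 (adjusted p = 0.000276) in Tfh over Th17, 1.39 ± 0.12 (adjusted p = 2.14e-08) in Tfh over Th1 and 0.65 ± 0.12 (adjusted p = 0.000262) in Th17 over Th1. The related kinase Dgkz was called higher in Tfh than in both others, at 298 to 412 CPM in Tfh, 159 to 261 CPM in Th17 and 122 to 255 CPM in Th1 libraries. Its log2FC was 0.75 ± 0.19 (adjusted p = 0.0115) in Tfh over Th17 and 0.93 ± 0.19 (adjusted p = 0.000613) in Tfh over Th1. Ptpn6 (SHP-1), a phosphatase recruited by inhibitory receptors, was also called higher in Tfh than in both others, by a log2FC of 0.55 ± 0.14 (adjusted p = 0.0115) over Th17 and 0.44 ± 0.14 (adjusted p = 0.0156) over Th1. Its ranges were 195 to 303 CPM in Tfh, 148 to 193 CPM in Th17 and 134 to 215 CPM in Th1 libraries, with an overlap between Tfh and Th1.

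Cblb, the ubiquitin ligase that sets the need for co-stimulation in T cells, was the only negative regulator called lower in Tfh and in Th17 than in Th1. It stood at 389, 619, 493, 554 and 505 CPM in the Tfh libraries. Cblb had 393, 513, 362, 429.5 and 388 CPM in the Th17 libraries and 849.5, 738, 963, 939 and 889 CPM in the Th1 libraries. All Th1 libraries were above all others. Cblb had a log2FC of -0.77 ± 0.13 (adjusted p = 9.19e-05) in Tfh over Th1 and -1.07 ± 0.13 (adjusted p = 4.02e-06) in Th17 over Th1. Its log2FC of 0.30 ± 0.13 in Tfh over Th17 did not pass (adjusted p = 0.145). The related ligase Cbl, at 48.7 to 121 CPM in Tfh, 68.6 to 82.2 CPM in Th17 and 52.5 to 90.4 CPM in Th1 libraries, was called in no comparison. Per kilobase, Cbl made up 9.61 to 16.9% of the sum of the pair in Tfh, 12 to 15% in Th17 and 5.57 to 7.94% in Th1 libraries. Ubash3a, the T cell form of the Sts proteins with little phosphatase activity, lay at 53.4 to 82.5 CPM in Tfh, 49.8 to 70.6 CPM in Th17 and 42.05 to 69.9 CPM in Th1 libraries with no call, and its share of the pair with Ubash3b ran the other way. That share was 11.3 to 15.8% in Tfh, 13.9 to 18% in Th17 and 22.0 to 23.7% in Th1 libraries. Csk, the kinase that locks Lck in its inactive form, lay at 84.7 to 129.9 CPM in Tfh, 66.4 to 103 CPM in Th17 and 60.5 to 114 CPM in Th1 libraries, also with no call.

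By pattern across the 3 comparisons, 14 of the 38 genes were called stepwise higher, in Tfh over Th17 and in Th17 over Th1 (and in Tfh over Th1). That is 36.8% of the set, against 3.12% of all genes tested. Without Tfh replicate 4, Th17 replicate 1 or Th17 replicate 2 the count was 9, with Cd3e, Cd3g, Cd5, Sit1 and Txk lost each time, while 2.67%, 2.34% and 2.65% of all genes were then stepwise. The 14 were Cd3d, Cd3e, Cd3g, Cd5, Zap70, Txk, Prkcq, Skap1, Sit1, Plcg1, Vav1, Malt1, Ubash3b and Dgka. Txk, whose calls against Th1 support nothing, is among them. A second group of 7 (Cd6, Tec, Lat, Lcp2, Grap2, Bcl10 and Ptpn22) was called higher in both Tfh and Th17 than in Th1, with no call between Tfh and Th17, which is 18.4% against 11.9% of all genes. Fyn, Fyb, Ptpn6 and Dgkz were called higher in Tfh than in both other conditions, with no call in Th17 over Th1, which is 10.5% against 2.15% of all genes. Ptprc and Lck were called in Tfh over Th1 alone (5.26% against 6.39%). Trat1 and Cblb were called lower in Tfh and Th17 than in Th1 (5.26% against 11.7%), and Themis was stepwise lower (2.63% against 3.03%). The calls of Trat1 against Th1 support nothing. Vav3 was higher in Tfh than in Th17 and lower in Th17 than in Th1, with no call in Tfh over Th1 (2.63% against 0.699%). Cd247, Cd4, Nck1, Was, Csk, Cbl and Ubash3a were called in no comparison, 18.4% of the set against 43.6% of all genes. With a correction for GC content, Nck1, Was and Csk were called higher in Tfh than in Th1, which left 4 genes with no call, while 32.8% of all genes had none. No overlap between the libraries was found for 14 genes above and 0 below in Tfh against Th17 (5.74% and 8.72% of all genes), 23 above and 3 below in Tfh against Th1 (16.1% and 18.2%) and 16 above and 3 below in Th17 against Th1 (14.5% and 14.3%).

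**Figure D3:**
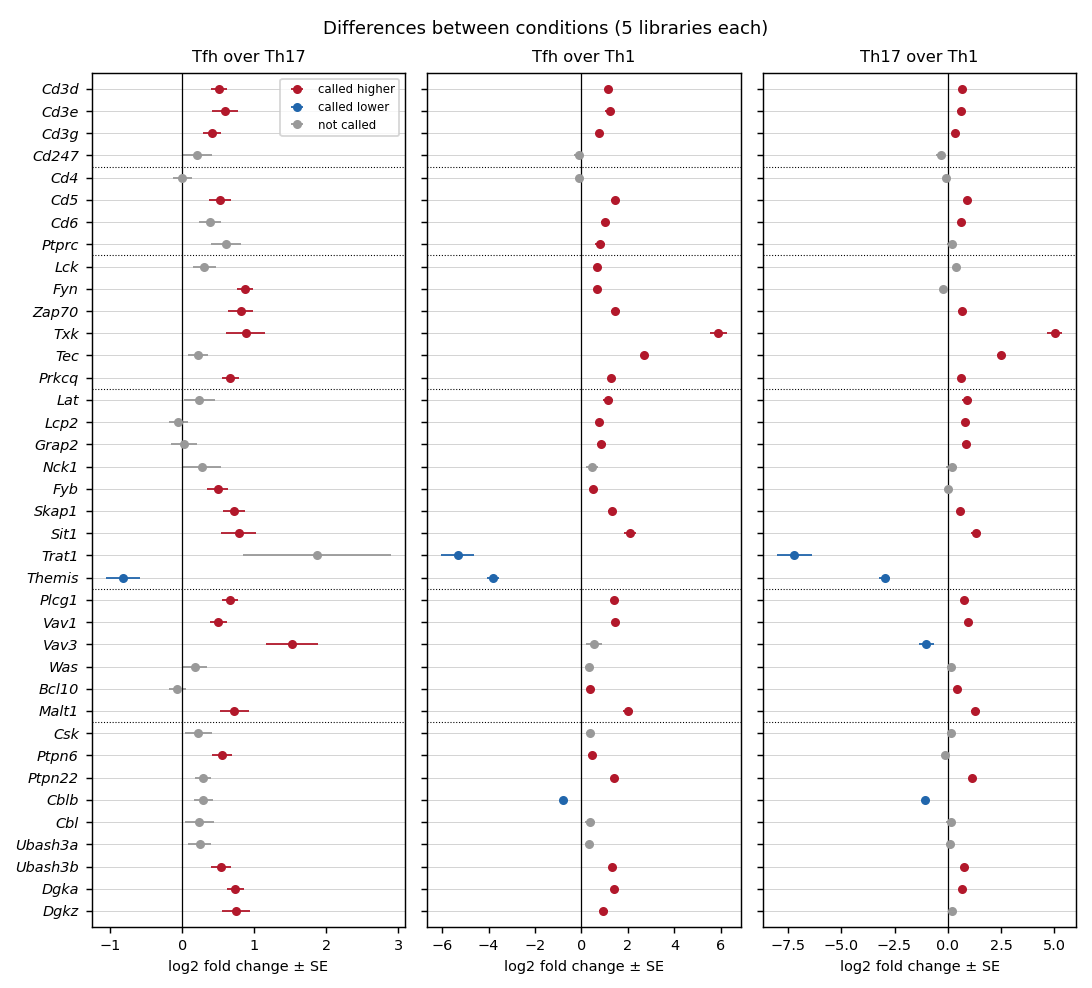
Log2 fold change ± SE of the 38 genes (rows, grouped by role with dotted lines) in Tfh over Th17, Tfh over Th1 and Th17 over Th1, each panel with its own horizontal scale. Red genes were called higher, blue lower and grey not; Themis is the only blue gene in the first panel, and Txk at 5.89 and Trat1 at -5.33 lie farthest from 0 in the second.

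Within a condition, the genes spanned a wide range of levels. Exon length here joins the exons of all annotated transcripts of a gene. Ranks between genes and shares of a pair per kilobase therefore depend on the annotation. Per kilobase of exon, the mean level in Tfh libraries ran from 469 CPM per kb for Cd3d, 374 for Lck, 324 for Cd5 and 317 for Cd3e down to 3.90 for Vav3, 3.47 for Themis and 0.0778 for Trat1. In Th17 libraries Cd3d (330.0 CPM per kb) and Lck (302) led again, and in Th1 libraries Lck (232) stood above Cd3d (211). Themis had rank 37 of 38 in Tfh, 32 in Th17 and 14 in Th1 libraries. Cblb had rank 22 in Tfh, 18 in Th17 and 8 in Th1 libraries. Txk had rank 33 in Tfh and 36 in Th17, and was last in Th1 libraries at 0.109 CPM per kb.

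**Figure D4:**
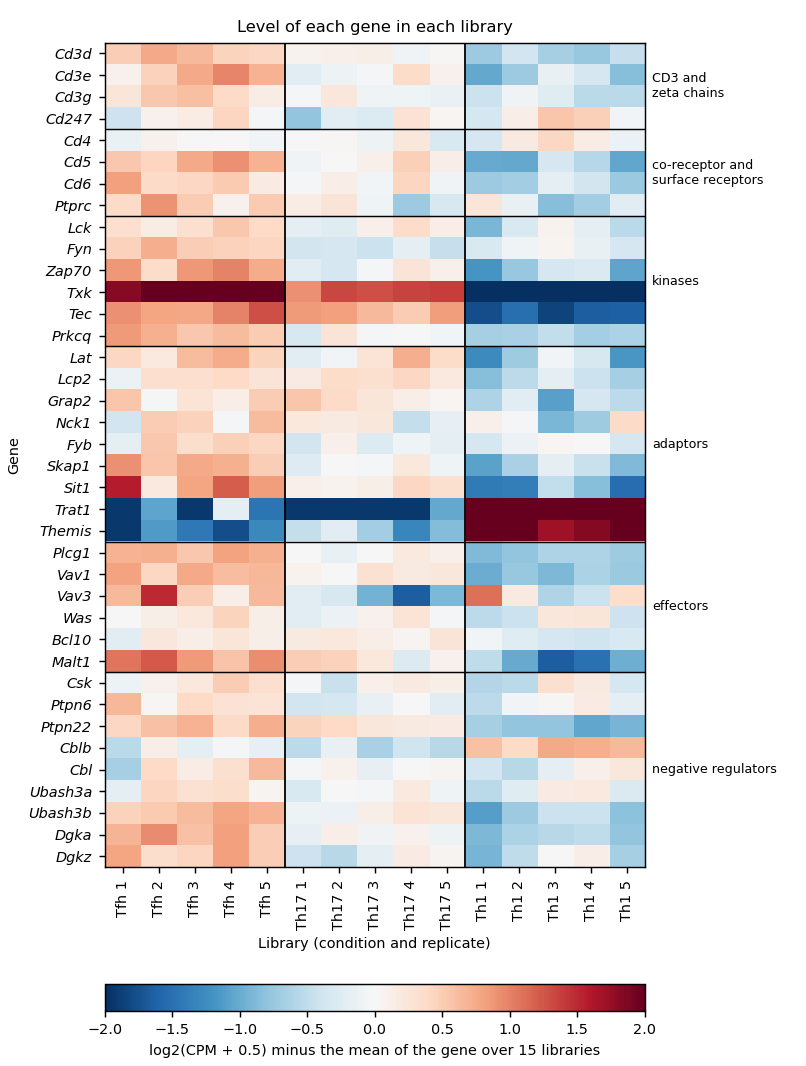
Level of each of the 38 genes (rows, by role) in each of the 15 libraries (columns), as log2(CPM + 0.5) minus the mean of the gene over all libraries, with colours that stop at 2 and -2. Most rows turn from red in Tfh through pale in Th17 to blue in Th1; Trat1, Themis and Cblb turn the other way, and the rows of Cd247 and Cd4 mix colours within each condition.

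Libraries of 1 condition differed from each other along the GC content of the transcripts. Across genes, the rank correlation of a library's deviation from its condition's mean with GC content ran from -0.67 in Th1 replicate 1 to 0.72 in Th17 replicate 4 and Th1 replicate 4. Themis shows this within Th1: it was 875 CPM in replicate 1 (correlation -0.67), 583 CPM in replicate 5 (-0.47) and 567 CPM in replicate 2 (-0.32), against 372 CPM in replicate 3 (0.71) and 409 CPM in replicate 4 (0.72). With each library's GC trend removed as an offset, the log2FC of Themis was -3.82 ± 0.11 in Tfh over Th1 and -0.76 ± 0.10 in Tfh over Th17, and that of Malt1 was 0.78 ± 0.08 in Tfh over Th17. The median SE of the 38 genes was then 0.11 in Tfh over Th17, against 0.158 without the offset. For some genes the SE grew in that comparison, among them Cd3e (0.204 against 0.183), Cd3g (0.180 against 0.126) and Cd247 (0.241 against 0.205). With the offset, the genes of the set called higher numbered 23 in Tfh against Th17, and 14.2% of all genes were then called higher. In Tfh against Th1 they numbered 31, and 29% of all genes were then called higher. Cd6, Ptprc, Lck, Ptpn22 and Cblb gained a call in Tfh over Th17 with the offset, Nck1, Vav3, Was and Csk in Tfh over Th1, and Lck (higher) and Fyn (lower) in Th17 over Th1. Cd3g lost its call in Tfh over Th17 (edgeR adjusted p = 0.0703) and in Th17 over Th1 (edgeR adjusted p = 0.306).

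The genes around this set came from lists of the same pathway. The shares of all genes to read their counts against were 6.8% higher and 9.98% lower in Tfh against Th17, 24.1% and 25.2% in Tfh against Th1, and 19% and 17.8% in Th17 against Th1. The constant regions of the receptor's own chains followed the CD3 chains against Th1. Trac stood at 1345, 2129, 2447, 2375 and 2169 CPM in the Tfh libraries. Trac had 1336, 1555, 1408, 1614 and 1438 CPM in the Th17 libraries and 659, 725, 1004, 814 and 613 CPM in the Th1 libraries. It had a log2FC of 0.51 ± 0.16 (adjusted p = 0.0325) in Tfh over Th17, 1.46 ± 0.16 (adjusted p = 5.36e-07) in Tfh over Th1 and 0.95 ± 0.16 (adjusted p = 0.000112) in Th17 over Th1. Trbc1 had a log2FC of 1.04 ± 0.17 (adjusted p = 6.34e-05) in Tfh over Th1 and Trbc2 0.83 ± 0.12 (adjusted p = 2.85e-05) in Th17 over Th1, values that are uncertain because the 2 beta constant genes are nearly identical. All 3 were called higher in Tfh and in Th17 than in Th1. In Tfh over Th17 1 of 3 was called, Trac, and its Tfh replicate 1 lay inside the Th17 range. Of 22 further proximal kinases and adaptors, 3 rose and 1 fell in Tfh against Th17, 8 rose and 7 fell in Tfh against Th1, and 6 rose and 6 fell in Th17 against Th1. The counts in Tfh against Th1 are 36.4% and 31.8%, against 24.1% and 25.2% of all genes. In Tfh over Th1 the adaptors Lax1 (log2FC 2.53 ± 0.20, adjusted p = 7.85e-09) and Sh2d2a (log2FC 1.86 ± 0.24, adjusted p = 4.14e-06) rose and the exchange factor Vav2 (log2FC -2.89 ± 0.33, adjusted p = 9.02e-07) fell.

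Of 13 genes of calcium entry and calcineurin, 3 rose and 1 fell in Tfh against Th17, 6 rose and 2 fell in Tfh against Th1, and 5 rose and 3 fell in Th17 against Th1. Those in Tfh against Th1 are 46.2% and 15.4%, against 24.1% and 25.2% of all genes. The calcium channel subunit Orai2 (log2FC 1.87 ± 0.22, adjusted p = 9.24e-07) rose and the inositol trisphosphate receptor Itpr1 (log2FC -2.61 ± 0.17, adjusted p = 4.79e-10) fell in Tfh over Th1. Of 14 Ras and MAP kinase genes, 3 rose and 1 fell in Tfh against Th17, 4 rose and 4 fell in Tfh against Th1, and 3 rose and 5 fell in Th17 against Th1. The 28.6% higher and 28.6% lower in Tfh against Th1 lay near the 24.1% and 25.2% of all genes. Rasgrp1, the Ras activator that binds diacylglycerol, had a log2FC of -1.57 ± 0.17 (adjusted p = 4.53e-07) in Tfh over Th1, although it had a log2FC of 0.70 ± 0.17 (adjusted p = 0.00737) in Tfh over Th17. The Ras inhibitor Rasa1 had a log2FC of 2.32 ± 0.33 (adjusted p = 1.35e-05) in Tfh over Th1. Of 10 further genes on the path to NF-kappaB, 2 rose and 1 fell in Tfh against Th17, 4 rose and 3 fell in Tfh against Th1, and 2 rose and 2 fell in Th17 against Th1. The 20% in each direction in Th17 against Th1 lay near the 19% and 17.8% of all genes. The NF-kappaB subunit Rel fell (log2FC -0.81 ± 0.23, adjusted p = 0.00743) and Rela rose (log2FC 0.83 ± 0.22, adjusted p = 0.00462) in Tfh over Th1.

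Of 11 further phosphatases and ubiquitin ligases tested, 1 was called in Tfh against Th17, where it fell, 6 rose and 3 fell in Tfh against Th1, and 4 rose and 2 fell in Th17 against Th1. The 9.09% lower in Tfh against Th17 lay near the 9.98% of all genes, and in Tfh against Th1 54.5% rose and 27.3% fell, against 24.1% and 25.2%. The MAP kinase phosphatase Dusp6 (log2FC 1.89 ± 0.18, adjusted p = 8.52e-08) rose and the ligase Nedd4 (log2FC -2.12 ± 0.17, adjusted p = 6.73e-09) fell in Tfh over Th1. Of 10 genes that receptor stimulation is known to induce, 2 rose and 2 fell in Tfh against Th17, 5 rose and 3 fell in Tfh against Th1, and 5 rose and 3 fell in Th17 against Th1. As shares, those in Tfh against Th1 are 50% and 30%, against 24.1% and 25.2% of all genes. Nfatc1 had a log2FC of 1.61 ± 0.19 (adjusted p = 1.02e-06) and Egr1 1.47 ± 0.22 (adjusted p = 1.87e-05) in Tfh over Th1. Against these, Tnfrsf9 (4-1BB) had a log2FC of -4.81 ± 0.16 (adjusted p = 6.97e-14) and Il2ra, the IL-2 receptor alpha chain, -2.04 ± 0.10 (adjusted p = 6.36e-12) in the same comparison. Egr2 had a log2FC of 0.72 ± 0.21 (adjusted p = 0.0199) and Il2ra -1.04 ± 0.10 (adjusted p = 1.17e-06) in Tfh over Th17.

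**Figure D5:**
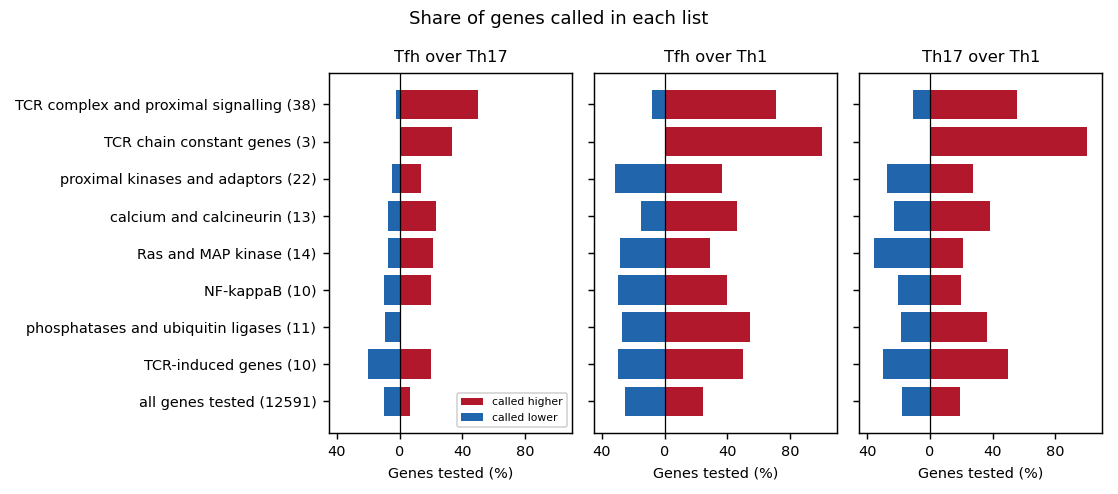
Percent of the genes tested in each list (horizontal axis) that were called higher (red, to the right) or lower (blue, to the left) in Tfh over Th17, Tfh over Th1 and Th17 over Th1, with the number of genes tested in brackets and all 12591 genes in the last row. The 38 genes of the receptor complex and proximal signalling had 50%, 71.1% and 55.3% called higher, against 6.8%, 24.1% and 19% of all genes.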

How the data were processed

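Messenger RNA was measured in 15 libraries, 5 each of Tfh, Th17 and Th1 cells, prepared with the SENSE kit of Lexogen (RNA input 100 ng) per the labels' protocols. Deposited files hold raw counts of reads for each Entrez gene ID. The authors aligned reads with STAR 2.7.2b to mm10 and counted them with featureCounts 1.6.4, per the submitters' processing notes. No annotation, strand setting or rule for multi-mapping reads is stated in the sources used, so genes that overlap others or have near-identical copies are uncertain. Single-sample files and the series table were identical in 15 of 15 cases, and named genes carried 98.21% of counts.

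Tests used edgeR 4.0.16 in R 4.3.3. Its filterByExpr function kept 12591 genes, and library sizes were TMM-scaled. All 15 libraries entered a single fit with no covariates. The two-sided quasi-likelihood test was adjusted by Benjamini-Hochberg over all genes tested, with calls at an adjusted p under 0.05. SEs of log2 fold changes come from the F statistic, and 95% intervals from the t distribution with its degrees of freedom. CPM uses the TMM-scaled library sizes, and levels per kilobase divide it by the union of exons in GENCODE. Names, coordinates and promoters came from RefSeq on GRCm38.p6. The fit was tested on simulated data. Alternatives were RLE factors, library size only, no filter, a strict filter (1 CPM in 10 libraries), DESeq2 1.42.0, limma-voom (limma 3.58.1), the replicate number as a block, a GC offset (loess span 0.5, with GC known for 91.56% of genes tested), the 2 conditions alone, and leaving out each library.

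Separate animals or cultures are not stated for the replicates, so the spread behind each p-value may be technical. Within a condition, every pair of libraries differed by more than counting noise (chi-square per gene at least 9.64). The genes, lists and motifs were chosen with earlier results of these data known. Values in every library are given for the CD3 and zeta chains, Cd4, Lck, Zap70, Lat and every gene of the set called with a log2 fold change of at least 1 in size, and the rest by ranges. Of each further list, genes were named from the 2 with the largest change per direction and comparison among those called and at a mean of 10 CPM or more. Some genes of the further lists and markers enter their counts and sums and are not reported here by name.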

Additional observations from a re-analysis of the deposited data

Results flagged for a closer look

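In 7 of the 114 groups of 5 libraries (38 genes in 3 conditions), 1 library stood apart from the other 4, by a gap of more than 0.71 of the group's range (Dixon's 95% value). Chance flags about 1 in 20 such groups. In Tfh, replicate 2 was the high library for Fyn, at 529 CPM against 428 to 451 CPM in the others, and for Vav3, at 39.3 CPM against 15.03 to 21.8 CPM. Replicate 1 was the low Tfh library for Fyb, at 216 CPM against 318 to 358 CPM, and it is the shallowest library of the series. In Th17, replicate 2 was high for Cd3g, at 569.96 CPM against 444 to 474 CPM, replicate 1 was low for Txk, at 28.8 CPM against 37.1 to 39.99 CPM, and replicate 5 held the only counts of Trat1, at 0.436 CPM against 0 CPM. In Th1, replicate 3, the deepest library, was high for Prkcq, at 200.3 CPM against 176 to 181 CPM. Without Th17 replicate 5, Trat1 was called higher in Tfh than in Th17 (log2 fold change 5.05, edgeR adjusted p = 0.0423), a ratio against libraries all at 0 whose size depends on the prior count.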

How the results depend on the processing

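The counts of genes of the set called higher kept within 1.5 times under every alternative run: 13 to 26 in Tfh against Th17 (19 as reported), 26 to 33 in Tfh against Th1 (27) and 19 to 22 in Th17 against Th1 (21). Calls over all genes, in either direction, moved too. They numbered 1613 to 4040 in Tfh against Th17 (2113) and 5564 to 7617 in Tfh against Th1 (6206). In Th17 against Th1 they numbered 4077 to 6264 (4642). Genes called stepwise higher numbered 9 to 14 when single libraries were left out and 13 to 18 in the other settings (14). The stepwise share of all genes was then 2.2% to 3.36% and 1.87% to 7.08% (3.12%). Genes called in no comparison numbered 7, where 43.6% of all genes had no call. They numbered 3 with the replicate block (36.1% of all genes), 4 with the GC correction (32.8%) and 1, Cd4, with both (29.4%). Without Tfh replicate 1 (42.9%) or Th1 replicate 3 (46.7%) they numbered 5. The single gene called lower in Tfh than in Th17, Themis, became 0 with limma-voom, and 0 to 1 when single libraries were left out. Over all genes, calls in Tfh against Th17 numbered 2113, and 3499 with the GC correction or 4040 with the GC correction and replicate block. Trat1 was removed by the strict filter. Of 2846 values of single genes under alternatives, 2703 kept direction and side of the threshold, 62 gained a call, 66 lost one and 15 changed sign. Ptprc gained a call in Tfh over Th17 in 9 of 10 settings other than leaving out a library. The sign changed only among values that were not called: with single libraries left out, the log2 fold change ranged from -0.1046 to 0.0011 for Bcl10, -0.0444 to 0.0836 for Cd4, -0.0437 to 0.1164 for Grap2 and -0.0931 to 0.0259 for Lcp2 in Tfh over Th17, and from -0.0931 to 0.0393 for Fyb (0.0156 with library size only), -0.0001 to 0.3188 for Nck1 and -0.0218 to 0.1428 for Ubash3a in Th17 over Th1. The causes were not tested. Alternatives were run for the 38 genes and the counts over all genes, and not for single genes of the further lists.

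Whether libraries with the same replicate number belong together is not stated, and their correlations did not settle it. Of 15 same-numbered pairs, 7 had deviations correlated over 0.1 (r -0.102 to 0.57), those of replicates 2 and 4 in all 3 comparisons, and 6 matched best with their own number. With the replicate block, 22 genes of the set were called higher and 1 lower in Tfh against Th17 (9.85% and 13.5% of all genes), 31 and 3 in Tfh against Th1 (27.4% and 27.6%), and 22 and 5 in Th17 against Th1 (23.3% and 20.3%). Calls gained with it were Cd6, Ptprc and Ptpn22 in Tfh over Th17, Was, Csk, Ubash3a and Vav3 in Tfh over Th1, and Cd247 (lower) and Lck in Th17 over Th1. Depth limits Trat1 and, in Th1, Txk, and no bound on their absence is drawn from so few counts.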
